A study of Rattus norvegicus with 28 samples.

Results

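The circadian clock genes described here are Per1, Per2, Per3, Cry1, Cry2, Clock, Dbp, Ciart, Bhlhe40 and Bhlhe41, chosen by exact gene symbol. All 10 were listed in every one of the 28 count files, among 23139 symbols in the microglial tables and 20268 or 20056 in the ENV or LPS set of the astrocyte tables. Bhlhe40 and Ciart were chosen also because they had been seen to differ between groups, so their values are given as a description with no test; the other 8 were tested. The study measured messenger RNA in primary glial cultures taken from cortices of Wistar rats on postnatal day 1 and grown for 10 days in medium with 10% fetal calf serum. Microglia were shaken off and purified on CD11b/c magnetic beads, then stimulated 1 day after isolation; astrocytes were stimulated 3 days after isolation. ENV is the recombinant envelope protein of the human endogenous retrovirus HERV-W, used at 1 µg/ml with buffer as its vehicle. LPS, a bacterial cell wall lipid that activates innate immune cells, was used at 100 ng/ml with H2O as its vehicle. The 8 groups (buffer, ENV, H2O and LPS in each cell type) hold 3 libraries each in microglia and 4 each in astrocytes. The sources used here give neither the time from stimulation to harvest nor the time of day at harvest, so each value is a level at 1 harvest and no rhythm was measured. Nothing says whether replicates were separate litters, so p-values reflect only library-to-library spread, possibly technical.

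In the mammalian clock, the activators CLOCK and BMAL1 bind E-box sequences and switch on the Per and Cry genes, whose proteins return to the nucleus and repress them. BHLHE40 and BHLHE41 (also called DEC1 and DEC2) bind the same E-boxes and repress, CIART (CHRONO) represses CLOCK and BMAL1, and DBP carries the rhythm to genes with D-boxes. Astrocytes and microglia are both known to run clocks, and in immune cells clock proteins are known to set the strength of inflammatory responses.

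CLOCK, BMAL1, BHLHE40 and BHLHE41 bind the E-box, so the 250 bases before each annotated start were searched for it (CACGTG, the same on both strands, RefSeq, GRCr8). Sequence outside this window was not searched, so a gene without a match here may hold an E-box elsewhere. Of the 10 members 9 had an entry in the promoter table, and 3 of the 9 held an E-box, against 5.59% of 33469 promoters of the same length. The 3 sequences follow, 5′ to 3′ in the direction of the gene, with each E-box in capitals. They are shown because these 3 repressors are the members with an E-box here.
Ciart (chr2:186112247-186112496, minus strand): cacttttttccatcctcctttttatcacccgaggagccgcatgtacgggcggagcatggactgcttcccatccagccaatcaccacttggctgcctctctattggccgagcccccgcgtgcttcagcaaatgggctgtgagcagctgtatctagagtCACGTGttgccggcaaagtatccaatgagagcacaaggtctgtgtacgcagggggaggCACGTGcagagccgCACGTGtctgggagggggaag
Bhlhe40 (chr4:143174200-143174449, plus strand): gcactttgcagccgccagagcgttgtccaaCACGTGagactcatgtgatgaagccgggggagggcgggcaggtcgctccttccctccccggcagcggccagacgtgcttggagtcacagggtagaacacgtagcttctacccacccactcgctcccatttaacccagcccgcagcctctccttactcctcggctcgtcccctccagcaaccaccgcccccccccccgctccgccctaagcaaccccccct
Bhlhe41 (chr4:180569356-180569605, minus strand): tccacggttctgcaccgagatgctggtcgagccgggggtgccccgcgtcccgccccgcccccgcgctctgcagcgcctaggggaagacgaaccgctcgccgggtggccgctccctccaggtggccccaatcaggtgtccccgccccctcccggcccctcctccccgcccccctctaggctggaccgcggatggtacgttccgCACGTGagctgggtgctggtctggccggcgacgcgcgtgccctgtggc
Counted back from the start, the E-boxes begin at -93, -35 and -21 in Ciart, at -220 in Bhlhe40 and at -48 in Bhlhe41. The related letters CACGTT (or AACGTG on the other strand) were found in Per2 at -62 and Cry2 at -212, against 4.07% of promoters. The D-box letters TTATGTAA (or TTACATAA), to which DBP binds, were found in Per2 at -192, against 0.828% of promoters. A match is a description of the letters and not evidence of binding.

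Values are counts scaled to a common library total of 1e6 (CPM) for levels, and log2 changes ± SE from the edgeR quasi-likelihood fit, with Benjamini-Hochberg adjusted p over all genes tested. An adjusted p below 0.05 made a gene called. Microglial libraries held 26513999 to 42724111 counts and astrocyte libraries 23742228 to 35326938, and a count of 0 in a library allowed at most 0.0702 to 0.126 CPM. The fit rescales libraries by TMM, and over the 10 members its log2 changes in microglia lay at the median 0.20 (ENV) and 0.30 (LPS) above the log2 ratio of mean CPM. The sign differed between the scales for Clock under ENV and for Per1 and Per2 under LPS, and none of these 3 changes was called. In astrocytes the gap was 0.02 for both agents. Microglial markers summed to 4944 to 9709 CPM in the microglial cultures, and astrocyte markers to 2348 to 11140 CPM in the astrocyte cultures, so the labelled cell types were present. Replicate 3 of microglial H2O stood apart from replicates 1 and 2, with oligodendrocyte lineage markers at 179 CPM against 16.7 and 17.1, and replicate 3 of LPS had 35.2 CPM against 5.02 and 5.41. The lowest sum of microglial markers was also that of LPS replicate 3, 4944 CPM against 8809 and 7764 in LPS replicates 1 and 2. Values without the replicate 3 pair of H2O and LPS are given beside the comparison of LPS with H2O in microglia.

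**Figure D1:**
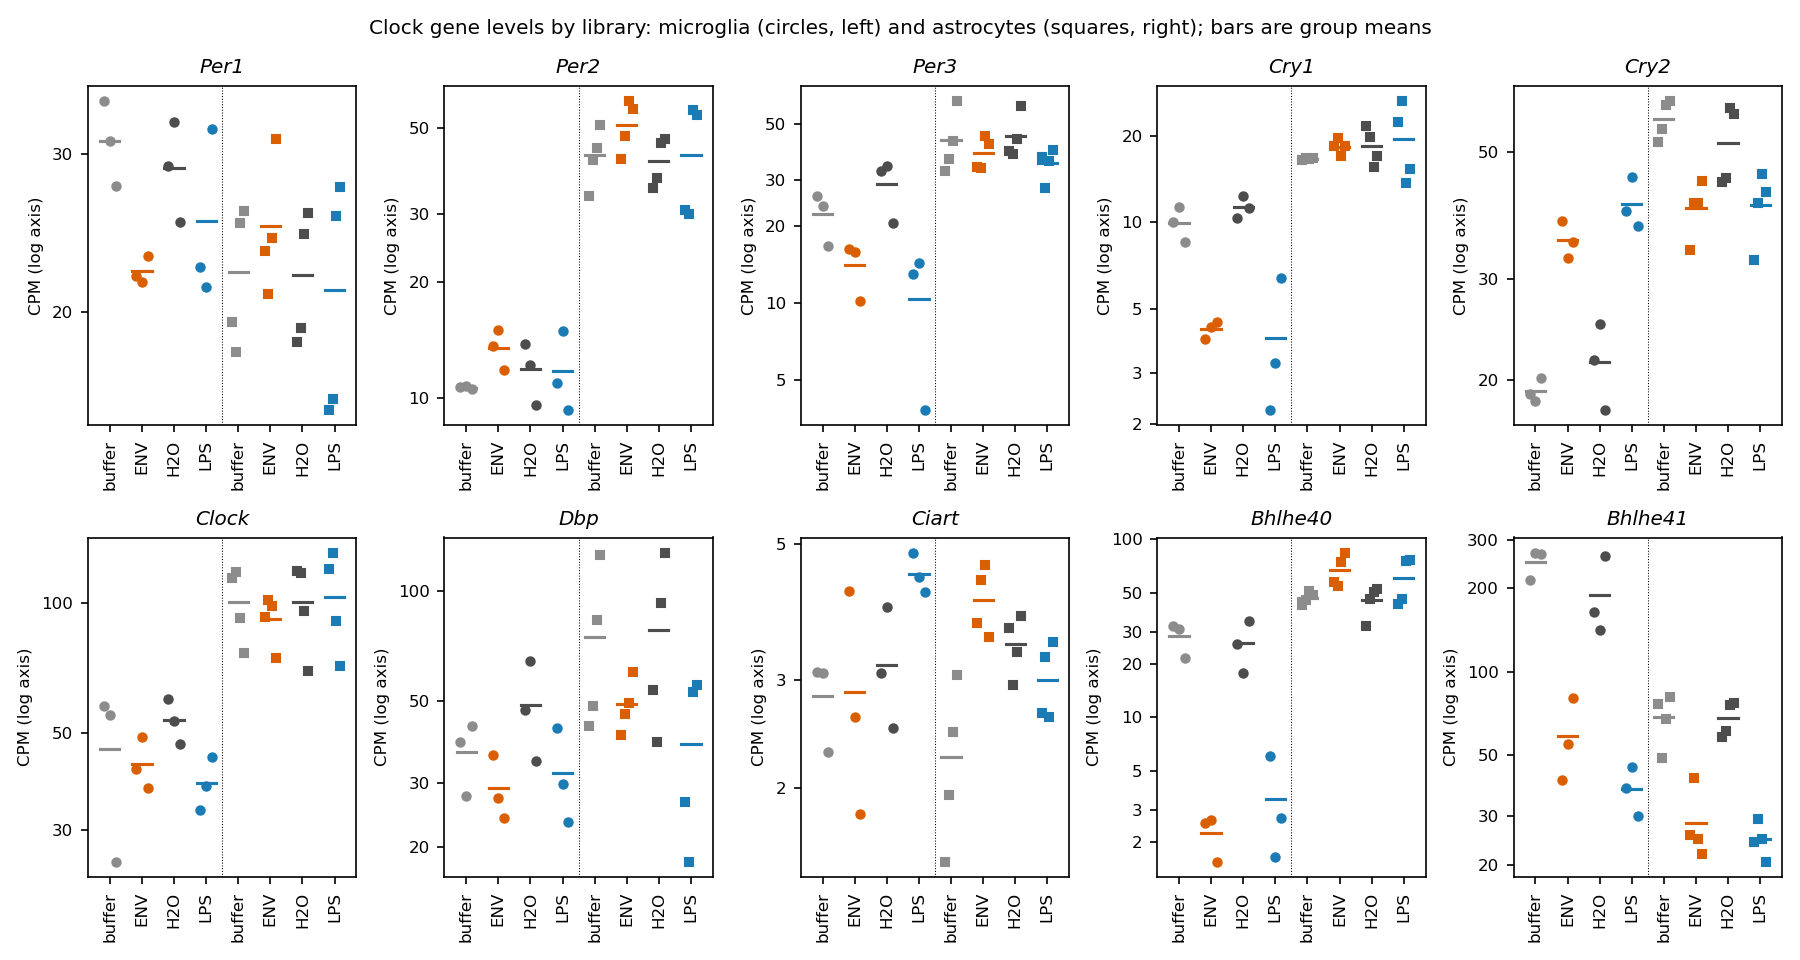
Level of each of the 10 clock genes (CPM, log axis) in every library of the 8 groups, with microglia as circles on the left and astrocytes as squares on the right; bars are group means. Bhlhe40 in microglia stood at 17.7 to 34.7 CPM in the vehicle libraries and at 1.55 to 6.03 CPM in the treated ones.

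ENV moved the clock genes of microglia in both directions: Cry2 and Per2 rose, while Cry1 and Bhlhe41 fell. Of the 8 tested members, 2 were called higher against 16.2% of 12844 genes, and 2 lower against 14.7%. With LPS, Cry2 rose and Bhlhe41 fell, 1 of 8 in each direction against 16% and 13.8% of 12229 genes. In astrocytes under ENV, Bhlhe41 and Cry2 fell, so 2 of 8 were lower against 8.35% of 14941 genes and 0 were higher against 9.52%. In astrocytes under LPS, Bhlhe41 fell, 1 of 8 against 2.69% of 14710 genes, and 0 rose against 2.64%. With 8 genes tested, no share is read as different from the background. The median log2 change over the 8 tested members, without Bhlhe40 and Ciart, was -0.20, -0.24, -0.13 and -0.18 in the same order. Over all genes it was -0.03, -0.02, 0.02 and 0.03. In CPM, the ranges of treated and vehicle libraries did not overlap for 7, 7, 5 and 1 of the 10 members; over all genes tested in the 4 comparisons 35.2% of ranges were apart. Bhlhe40 and Ciart are among those members, and nothing is read from this count.

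Same-numbered vehicle and treated libraries deviated together across genes, so a fit with the replicate number as a block was also run. It called 5, 4, 3 and 3 of the 8 members, against 39.2%, 30.3%, 29.1% and 17.7% of all genes, in the order microglia with ENV, microglia with LPS, astrocytes with ENV and astrocytes with LPS. Its values are given below only where a call differs.

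**Figure D2:**
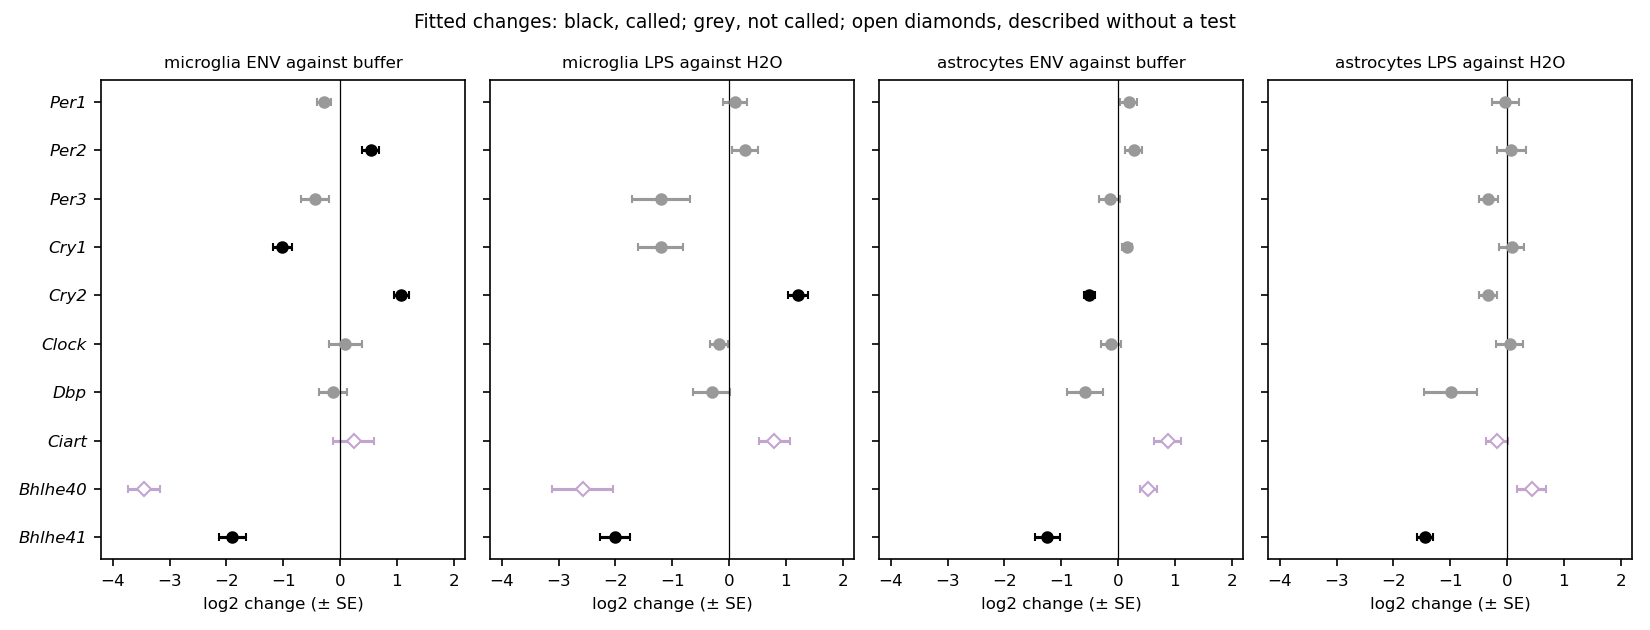
Fitted log2 change ± SE of each clock gene in the 4 comparisons of a treatment with its vehicle. Black points were called and grey points were not; open diamonds are Bhlhe40 and Ciart, described without a test. Bhlhe41 lies between -2.01 and -1.25 in all 4 panels, and Cry2 lies right of 0 in microglia and left of 0 in astrocytes.

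Bhlhe40, a transcriptional repressor of E-box genes that also shapes cytokine output in immune cells, was lower in treated microglia and not in treated astrocytes. In microglia it stood at 32.6, 31.4 and 21.4 CPM with buffer and at 2.56, 2.64 and 1.55 CPM with ENV. Every ENV library lay far below every buffer library, a 12.6-fold difference of means (28.5 ± 6.15 against 2.25 ± 0.61 CPM, SD, n = 3 each). The fitted log2 difference was -3.45 ± 0.28. With H2O the libraries gave 25.8, 17.7 and 34.7 CPM, and with LPS 6.03, 1.65 and 2.73 CPM. These groups did not overlap either, and the LPS library of replicate 1 was the highest of its group. The fitted difference was -2.57 ± 0.54; it was -3.29 ± 0.40 without LPS replicate 1 and -2.19 ± 0.63 without the replicate 3 pair. Oligodendrocyte lineage markers summed lower in treated than vehicle microglial cultures, at 302 to 335 CPM with buffer against 81.0 to 168 with ENV. They summed to 16.7 to 179 CPM with H2O against 5.02 to 35.2 with LPS, ranges that overlapped. Among the 7 tested, 3 were called lower with ENV and 1 with LPS, and 0 were called higher. Of the 8 markers Mog was at 0 in every ENV and every LPS library. Astrocyte markers in the microglial cultures summed to 235 to 290.4 CPM with buffer, 114 to 232 with ENV, 62.7 to 282 with H2O and 24.4 to 45.4 with LPS. With ENV 1 of the 8 tested was called lower and 0 higher, and with LPS 0 of the 5 tested were called. Endothelial markers summed higher in treated cultures, at 41.9 to 54.1 CPM with buffer against 87.2 to 181 with ENV. They summed to 52.0 to 97.2 CPM with H2O against 91.2 to 215 with LPS, ranges that overlapped. Of the 4 tested, 2 were called higher with ENV and 1 with LPS. Cldn5 was not among the genes listed, so it has no value here. The part of these other cells in the microglial results was not tested.

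Astrocytes showed the opposite order for Bhlhe40. Buffer libraries stood at 42.8, 45.6, 50.9 and 48.7 CPM and ENV libraries at 57.3, 54.6, 74.2 and 83.7 CPM, with no overlap and a fitted difference of 0.54 ± 0.15. H2O libraries stood at 32.6, 46.2, 50.3 and 52.7 CPM and LPS libraries at 43.0, 46.0, 75.2 and 76.8 CPM, which overlapped, with a fitted difference of 0.43 ± 0.25. In replicates 1 and 2 alone the differences were 0.27 ± 0.09 with ENV and 0.15 ± 0.18 with LPS, and in replicates 3 and 4 alone 0.72 ± 0.13 and 0.61 ± 0.10. All 3 microglial pairs were lower with ENV and all 4 astrocyte pairs higher.

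Bhlhe41, the close relative of Bhlhe40 and likewise a repressor, fell in both cell types under both agents. Microglia held 215, 269 and 266 CPM with buffer and 40.5, 55.0 and 80.3 CPM with ENV, a log2 change of -1.90 ± 0.24 (adjusted p = 0.00169, edgeR). They held 165, 142 and 262 CPM with H2O and 38.1, 45.0 and 30.1 CPM with LPS, a change of -2.01 ± 0.27 (adjusted p = 0.00502, edgeR). Without the replicate 3 pair the LPS change was -1.60 ± 0.14 (adjusted p = 0.00217). No treated microglial library reached a vehicle library, and ENV replicate 3, at 80.3 CPM, was the highest of the 6 treated ones.

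Astrocytes held 76.2, 48.8, 67.3 and 81.2 CPM of Bhlhe41 with buffer and 25.6, 41.4, 24.9 and 21.9 CPM with ENV, a change of -1.25 ± 0.22 (adjusted p = 0.00748, edgeR). With H2O they held 58.0, 61.1, 75.8 and 76.9 CPM and with LPS 24.3, 29.3, 24.9 and 20.6 CPM, a change of -1.44 ± 0.14 (adjusted p = 0.00347, edgeR). The groups did not overlap, but replicate 2 of ENV and of buffer were close, at 41.4 and 48.8 CPM. Within replicates 1 and 2 the ENV change was -0.96 ± 0.33 (adjusted p = 0.163), and within replicates 3 and 4 it was -1.60 ± 0.16 (adjusted p = 0.0156). The 10 microglial markers summed in the astrocyte cultures to 97.9 to 678 CPM with buffer, 63.6 to 317 with ENV, 220.0 to 627 with H2O and 77.9 to 300 with LPS, none of them at 0 in all libraries of a group. With ENV 2 of the 10 were called lower in astrocytes and with LPS 0. Fibroblast and mural markers summed to 1511 to 6499 CPM with buffer and 983 to 1894 with ENV, and to 1557 to 5507 CPM with H2O and 965 to 1824 with LPS. Neuronal markers summed to 104 to 156 CPM with buffer and 27.1 to 60.7 with ENV, and to 104 to 145 CPM with H2O and 33.5 to 83.7 with LPS. Astrocyte markers summed to 8318 to 11140 CPM with buffer, 4341 to 8014 with ENV, 5150 to 11130 with H2O and 2348 to 7966 with LPS. With ENV 1 of the 8 astrocyte markers was called higher and 3 lower. Among the 3 neuronal markers tested 1 was called lower with ENV, and 0 of 7 fibroblast and mural markers were called. With LPS 0 astrocyte, neuronal or fibroblast and mural markers were called. The part of the cell makeup in the fall of Bhlhe41 was not tested, and in such bulk samples fewer cells of a type and less RNA per cell cannot be told apart.

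The 2 cryptochromes, the light-insensitive repressors that close the loop, moved apart in microglia. Cry1 fell from 10.0, 11.3 and 8.56 CPM with buffer to 3.93, 4.34 and 4.52 CPM with ENV (log2 change -1.02 ± 0.17, adjusted p = 0.00483, edgeR). Cry2 rose from 18.9, 18.4 and 20.2 CPM to 38.0, 32.7 and 34.8 CPM (1.08 ± 0.13, adjusted p = 0.00154, edgeR). Neither gene's ranges overlapped, and all 3 pairs agreed in sign for each.

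With LPS, Cry2 stood at 39.5, 45.3 and 37.2 CPM in microglia against 21.7, 25.1 and 17.7 CPM with H2O, a rise of 1.22 ± 0.17 (adjusted p = 0.00605, edgeR) and of 1.14 ± 0.13 without the replicate 3 pair (adjusted p = 0.00393). Cry1 stood at 2.23, 3.24 and 6.43 CPM against 10.3, 12.3 and 11.2 CPM with H2O. The ranges were apart, but LPS replicate 3 lay well above the other two. Its change of -1.21 ± 0.39 missed the threshold (adjusted p = 0.0610, edgeR). It passed with the replicate block (-1.33 ± 0.35, adjusted p = 0.0470), by DESeq2 (-1.20 ± 0.43, adjusted p = 0.0168), without LPS replicate 3 (-1.74 ± 0.22, adjusted p = 0.00479) and without the replicate 3 pair (-1.78 ± 0.24, adjusted p = 0.00580).

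In astrocytes Cry2 went the other way. It fell from 52.1, 54.8, 60.5 and 61.3 CPM with buffer to 33.7, 40.8, 40.8 and 44.5 CPM with ENV (-0.50 ± 0.10, adjusted p = 0.0121, edgeR). The change was -0.59 ± 0.13 within replicates 1 and 2 (adjusted p = 0.0837) and -0.45 ± 0.12 within replicates 3 and 4 (adjusted p = 0.110). With LPS it stood at 32.5, 40.9, 45.8 and 42.6 CPM against 44.3, 45.2, 59.7 and 58.4 CPM with H2O, a change of -0.34 ± 0.15 (adjusted p = 0.262) that was called with the replicate block (-0.34 ± 0.08, adjusted p = 0.0359). All 4 pairs were lower with each agent. Cry1 stood at 16.5 to 16.7 CPM with buffer and 17.0 to 19.6 CPM with ENV, apart but close (0.15 ± 0.09, adjusted p = 0.272), and at 15.6 to 21.5 CPM with H2O and 13.8 to 26.3 CPM with LPS (0.08 ± 0.22, adjusted p = 0.887).

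The difference between the cell types was tested directly, over symbols in both gene tables. Days after isolation differed too (1 for microglia, 3 for astrocytes), and the test cannot tell it apart from cell type. For ENV, 2 of 8 members differed, against 14.9% of 13378 genes: Cry2, whose response was 1.57 ± 0.16 higher in microglia (adjusted p = 9.16e-05, edgeR), and Cry1, whose response was -1.18 ± 0.16 lower there (adjusted p = 0.000454). With the replicate block 24.8% of genes were called and Per1 joined them (-0.47 ± 0.14, adjusted p = 0.0415 against 0.148 without it). For LPS, Cry2 differed by 1.53 ± 0.24 (adjusted p = 0.00190, edgeR), 1 of 8 members against 12.5% of 13284 genes. Cry1 differed by -1.29 ± 0.47 (adjusted p = 0.0948); without microglial LPS replicate 3 it was -1.89 ± 0.35 (adjusted p = 0.00647). With the replicate block, which called 22.8% of genes, Cry1 (-1.40 ± 0.37, adjusted p = 0.0304) and Per3 (-1.05 ± 0.26, adjusted p = 0.0251) were called too. Bhlhe41 did not pass in either test (-0.66 ± 0.35, adjusted p = 0.228 for ENV; -0.61 ± 0.28, adjusted p = 0.181 for LPS). For Bhlhe40, described without a test, the responses differed by -3.99 ± 0.30 for ENV and -3.04 ± 0.58 for LPS.

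**Figure D3:**
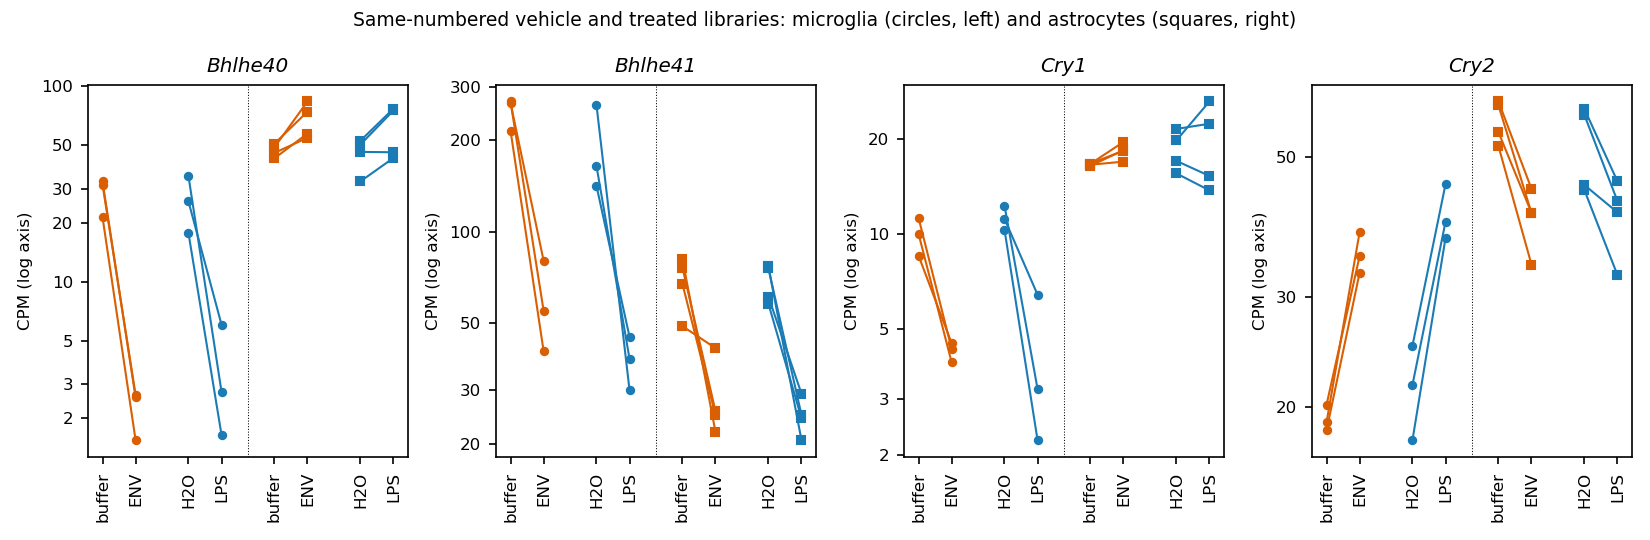
CPM (log axis) of Bhlhe40, Bhlhe41, Cry1 and Cry2, with a line joining the vehicle and treated library of the same replicate number, ENV in orange and LPS in blue, microglia left of the dotted line and astrocytes right of it. Cry2 lines climb in all 6 microglial pairs and descend in all 8 astrocyte pairs, while Bhlhe41 lines descend in every pair.

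The Period genes, partners of the cryptochromes in the repressive complex, were called once, for Per2 in microglia with ENV. There it rose from 10.6, 10.7 and 10.5 CPM with buffer to 13.6, 15.0 and 11.8 CPM with ENV (0.54 ± 0.15, adjusted p = 0.0323, edgeR). The groups lay close but apart. The call was lost in the joint fit of all 4 microglial groups (adjusted p = 0.0730) and without any one of buffer replicate 1, buffer replicate 2, ENV replicate 1 or ENV replicate 2 (adjusted p = 0.0897 to 0.117). With LPS Per2 stood at 10.9, 14.9 and 9.30 CPM against 13.8, 12.2 and 9.60 CPM (0.28 ± 0.24, adjusted p = 0.396; 0.27 ± 0.18, adjusted p = 0.292, without the replicate 3 pair).

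Per3 was lower in all 3 microglial pairs with either agent. Buffer libraries held 26.1, 23.8 and 16.7 CPM and ENV libraries 16.2, 15.8 and 10.2 CPM, ranges that were only just apart. The change of -0.45 ± 0.25 missed the threshold (adjusted p = 0.207, edgeR) and passed with the replicate block (-0.46 ± 0.12, adjusted p = 0.0293). H2O libraries held 32.6, 34.1 and 20.6 CPM and LPS libraries 12.9, 14.2 and 3.81 CPM, with replicate 3 the lowest of both groups. The change of -1.19 ± 0.50 missed the threshold (adjusted p = 0.1204) and passed with the block (-1.36 ± 0.27, adjusted p = 0.0261), in the joint fit (-1.23 ± 0.43, adjusted p = 0.0442) and without the replicate 3 pair (-1.02 ± 0.12, adjusted p = 0.00437).

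Per1, the Period gene most quickly induced by outside signals, stood at 34.3, 31.02 and 27.6 CPM with buffer and 21.9, 21.6 and 23.1 CPM with ENV in microglia. These ranges were apart in CPM, but the fitted change of -0.28 ± 0.12 was not called (adjusted p = 0.125, edgeR), except without buffer replicate 3 (-0.34 ± 0.10, adjusted p = 0.0440). With LPS it stood at 22.4, 21.3 and 32.0 CPM against 29.1, 32.6 and 25.2 CPM with H2O (0.11 ± 0.21, adjusted p = 0.720). Without the replicate 3 pair the sign turned (-0.21 ± 0.13, adjusted p = 0.269).

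In astrocytes no Period gene was called without the block. Per2 stood at 33.4, 41.4, 44.3 and 51.0 CPM with buffer and 41.6, 47.7, 58.6 and 56.0 CPM with ENV. It was higher in all 4 pairs while the groups overlapped, and the change was 0.28 ± 0.15 (adjusted p = 0.243, edgeR) or, with the block, 0.28 ± 0.08 (adjusted p = 0.0482). With LPS its change was 0.08 ± 0.25 (adjusted p = 0.907). Per1 changed by 0.19 ± 0.15 with ENV and -0.03 ± 0.23 with LPS, and Per3 by -0.15 ± 0.19 and -0.33 ± 0.16 (adjusted p = 0.438, 0.968, 0.642 and 0.302).

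Clock, the activator, was not called in any of the 4 comparisons. In microglia it stood at 57.9, 55.0 and 25.3 CPM with buffer, where replicate 3 was far below the others, and at 41.4, 49.0 and 37.4 CPM with ENV (0.10 ± 0.29, adjusted p = 0.827, edgeR). With H2O it stood at 60.1, 53.5 and 47.4 CPM and with LPS at 33.2, 37.9 and 44.2 CPM, apart in CPM (-0.18 ± 0.16, adjusted p = 0.425; -0.40 ± 0.12, adjusted p = 0.0590, without the replicate 3 pair). Astrocyte libraries ran from 76.8 to 118 CPM with buffer, 74.6 to 102 with ENV, 69.8 to 119 with H2O and 71.7 to 131 with LPS, with fitted changes of -0.12 ± 0.18 and 0.05 ± 0.23.

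Bmal1, the partner of Clock and not a member of the list, was also not called. Its symbol differs between the tables (Arntl in microglia), so it was not compared between cell types. Means were 25.1 to 30.5 CPM in the 4 microglial groups and 9.86 to 12.9 CPM in the 4 astrocyte groups. The largest of its 4 changes was 0.41 ± 0.12 in astrocytes with LPS (adjusted p = 0.106, edgeR).

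Dbp, the D-box activator driven directly by the clock, was lower in CPM in each same-numbered pair of all 4 comparisons, with none called. In microglia some log2 differences were small, at -0.11 and -0.02 for ENV replicates 1 and 2 and -0.16 for LPS replicate 1. These were smaller in size than the gap between CPM and the TMM scale (0.20 and 0.30), so their sign may depend on the scale. The clearest pairs were astrocytes with LPS, at 26.5, 18.3, 53.0 and 55.3 CPM against 53.8, 38.8, 92.9 and 127 CPM with H2O. The groups overlapped because replicates 3 and 4 stood higher than 1 and 2 in both. The change of -0.99 ± 0.47 was not called (adjusted p = 0.276, edgeR). With the replicate block it was -1.01 ± 0.09 (adjusted p = 0.00256). Within replicates 1 and 2 it was -1.08 ± 0.23 (adjusted p = 0.0290), and within replicates 3 and 4 it was -0.98 ± 0.16 (adjusted p = 0.0459).

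With ENV, astrocyte Dbp stood at 40.5, 46.3, 49.6 and 60.0 CPM against 42.9, 48.5, 83.3 and 125 CPM with buffer (-0.58 ± 0.31, adjusted p = 0.235; 0.0792 with the block). The distance was small in replicates 1 and 2 and large in 3 and 4. In microglia Dbp stood at 35.7, 27.2 and 24.1 CPM with ENV against 38.6, 27.6 and 42.8 CPM, and at 42.2, 29.8 and 23.4 CPM with LPS against 47.2, 64.5 and 34.3 CPM. Both pairs of groups overlapped, with changes of -0.12 ± 0.24 and -0.31 ± 0.32 (adjusted p = 0.725 and 0.506). Without the replicate 3 pair the LPS change was -0.34 ± 0.25 (adjusted p = 0.331).

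Ciart was the scarcest member in CPM in most groups, and it is described without a test. Microglia held 3.09, 3.08 and 2.29 CPM with buffer and 4.19, 2.61 and 1.81 CPM with ENV, which overlapped (0.24 ± 0.36; -0.18 ± 0.29 without ENV replicate 1). With LPS they held 4.84, 4.41 and 4.17 CPM against 3.08, 3.95 and 2.504 CPM with H2O, which did not overlap (0.80 ± 0.27; 0.68 ± 0.24 without the replicate 3 pair). In astrocytes it was the ENV groups that lay apart. Ciart stood at 1.52, 1.95, 2.46 and 3.06 CPM with buffer and 3.72, 4.37, 4.62 and 3.52 CPM with ENV, with no overlap (0.87 ± 0.24). It stood at 3.65, 2.94, 3.34 and 3.81 CPM with H2O and 2.65, 3.27, 2.61 and 3.47 CPM with LPS (-0.17 ± 0.20). The H2O vehicle lay 0.59 ± 0.23 above the buffer vehicle, so the ENV difference was set against the lower of the 2 vehicles.

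The vehicles themselves were compared next, since ENV and LPS have different ones. No tested member differed between H2O and buffer, 0 of 8 in each cell type against 0% of 12900 and 14876 genes. Over all genes the edgeR test called none while 1946 (microglia) and 125 (astrocytes) had an unadjusted p under 0.05, and DESeq2 called 679 and 0. Without H2O replicate 3 the microglial count rose to 1650 genes, with still 0 of the 8 members. The difference between the ENV and LPS responses was likewise called for 0 of 8 members in microglia and astrocytes, against 0% of 13270 and 15496 genes. Unadjusted p-values under 0.05 numbered 937 and 76, and DESeq2 called 67 and 0. The largest such difference among tested members was that of Per3 in microglia, 0.79 ± 0.60 (adjusted p = 0.801).

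Other genes of the pathway were taken from a list of 30. In microglia with ENV 25 were tested, of which 3 were higher and 5 lower (16.2% and 14.7% over all genes); the replicate block called 5 and 7. Tspo, a mitochondrial outer membrane protein used as a marker of reactive glia, rose by 1.86 ± 0.30 (adjusted p = 0.00451, edgeR). Nampt, the enzyme of NAD salvage that feeds back on the clock through SIRT1, rose by 1.3 ± 0.21 (adjusted p = 0.00505). Btrc, a ligase adaptor that marks PER for decay, rose by 0.57 ± 0.14, a call lost when any of 4 single libraries was left out (highest adjusted p = 0.0784). Noct, a rhythmic phosphatase, fell by 1.55 ± 0.31, Wee1, a kinase that holds mitosis, by 1.08 ± 0.14, and Tsc22d3, a glucocorticoid target, by 1.05 ± 0.11. Csnk1e, a kinase that phosphorylates PER, fell by 1.04 ± 0.13. Timeless, a replication fork protein linked to the clock, fell by 0.54 ± 0.14, a call lost without any of 3 libraries.

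With LPS in microglia 24 were tested, with 5 higher and 5 lower (16% and 13.8% over all genes), 5 and 4 with the block and 5 and 6 without the replicate 3 pair. Called with both agents were Tspo (2.47 ± 0.46), Nampt (1.98 ± 0.15), Wee1 (-1.61 ± 0.16), Tsc22d3 (-1.04 ± 0.25), Csnk1e (-0.88 ± 0.23) and Timeless (-0.77 ± 0.17). Csnk1e was lost with the replicate block (adjusted p = 0.0581) and without the replicate 3 pair (adjusted p = 0.0776), while the other 9 were called there too. Noct was not called with LPS (-0.73 ± 0.50, adjusted p = 0.305) but was without that pair (-1.64 ± 0.18, adjusted p = 0.00342), as was Sirt1 (-0.54 ± 0.15, adjusted p = 0.0466). Nfil3, the repressor that opposes DBP at D-boxes, rose by 1.23 ± 0.28 (adjusted p = 0.0211), and Klf10 by 1.01 ± 0.25 (adjusted p = 0.0265). Klf9 fell by 1.63 ± 0.47 (adjusted p = 0.0435) from a low level, 2.595 ± 0.69 to 0.68 ± 0.28 CPM, and lost its call without any one of the 6 libraries. Fbxw11 (0.84 ± 0.14) was also higher. Single libraries decided the calls of Csnk1e (5 of the 6), Klf10 (4), Timeless (4), Nfil3 (3), Tsc22d3 (3) and Tspo (2: H2O replicates 1 and 2). In that order the highest adjusted p was 0.131, 0.0967, 0.0639, 0.0809, 0.104 and 0.0630 (edgeR). Nampt, Wee1 and Fbxw11 kept theirs under each library left out.

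In astrocytes with ENV 29 were tested, 3 higher and 0 lower (9.52% and 8.35% over all genes). The block called 3 and 2, adding Id2 (-0.42 ± 0.10, adjusted p = 0.0254) and Tsc22d3 (-0.47 ± 0.13, adjusted p = 0.0383) as lower. Nampt rose by 0.91 ± 0.12 (adjusted p = 0.00230, edgeR) and Nfil3 by 0.51 ± 0.13 (adjusted p = 0.0264), the latter lost without buffer replicate 1, 2 or 3. The third was Tspo (0.65 ± 0.19, adjusted p = 0.0470), named after its values were seen because its groups overlapped; the call was lost without 7 of the 8 libraries. In astrocytes with LPS 28 were tested, with Nampt higher (0.86 ± 0.20, adjusted p = 0.0467, lost without 7 of the 8 libraries) and Nr1d1 lower (2.64% and 2.69% over all genes); the block called 2 higher and 5 lower. Nr1d1 encodes REV-ERBα, the repressor of Bmal1. It stood at 14.8, 13.7, 13.6 and 13.3 CPM with LPS against 24.4, 19.9, 28.01 and 25.5 CPM with H2O (-0.80 ± 0.12, adjusted p = 0.0117), and every LPS library lay below every H2O library. With ENV it changed by -0.43 ± 0.18 (adjusted p = 0.141). In microglia Nr1d1 scattered with LPS, at 18.2, 6.84 and 1.44 CPM against 8.22 to 9.86 CPM with H2O, and was not called (0.34 ± 0.79, adjusted p = 0.771; 0.77 ± 0.49, adjusted p = 0.274, without the replicate 3 pair), nor was it with ENV (0.60 ± 0.38, adjusted p = 0.272). Nr1d2, its paralog, was not called in any of the 4 comparisons (adjusted p = 0.320 to 0.976). It stood at 32.8, 27.5 and 8.69 CPM with LPS in microglia, so replicate 3 was low in Per3, Nr1d1 and Nr1d2 together. That library also held the lowest sum of microglial markers, and the part of its cell makeup in these values was not tested.

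Astrocyte replicates fell into 2 sets in these genes. Per1, Per2, Dbp and Bhlhe40 were higher in replicates 3 and 4 than in replicates 1 and 2 in all 4 groups, as were 8.92% of 15496 genes; 7.18% were lower in all 4. Dbp in vehicle libraries showed it most, with 38.8 to 53.8 CPM in replicates 1 and 2 and 83.3 to 127 CPM in replicates 3 and 4. Per3 and Cry2 were higher in 3 of the 4 groups, and Clock and Cry1 lower in 3 of the 4. Tef, Nr1d2 and Nfil3, from the other pathway genes, followed the same order in all 4 groups, and Wee1 and Gsk3b the opposite order. The labels name no batch for these replicates. Summed astrocyte markers were also higher in replicates 3 and 4 in all 4 groups. With LPS they stood at 2348 and 2420 CPM in replicates 1 and 2 and at 7059 and 7966 CPM in replicates 3 and 4. With buffer they stood at 8318 and 8604 CPM against 8942 and 11140 CPM. Oligodendrocyte lineage markers were higher there in all 4 groups, and neuronal markers were lower with ENV and with LPS. The part of cell makeup in this split was not tested. The comparisons of treatment with vehicle have both sets on each side.

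**Figure D4:**
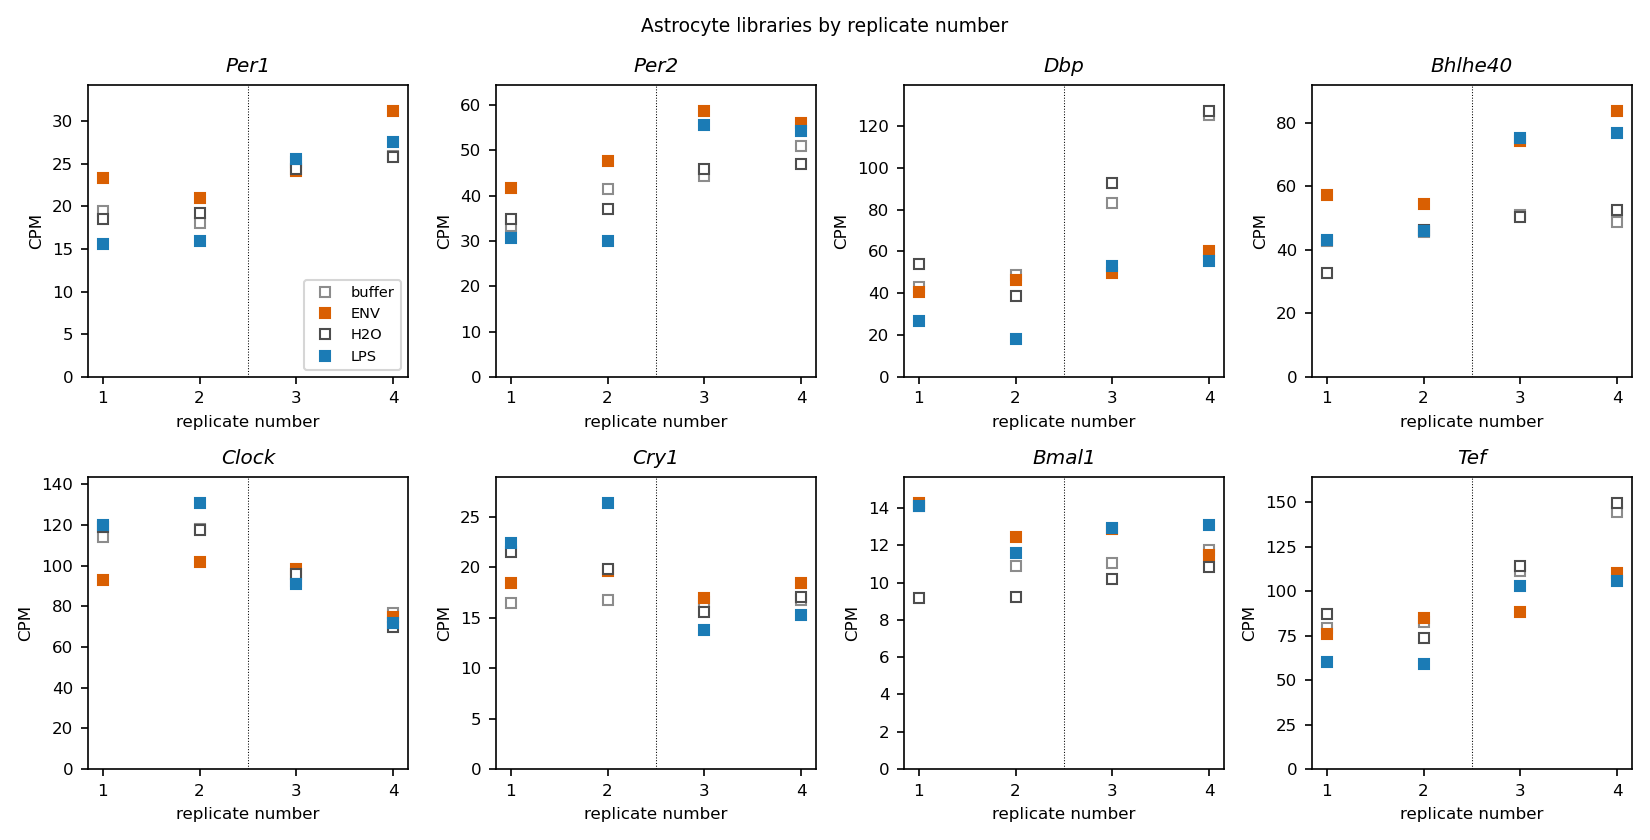
CPM of 6 clock genes and of Bmal1 and Tef in the 16 astrocyte libraries by replicate number, with vehicles as open and treated groups as filled squares. Per1, Per2, Dbp and Bhlhe40 stand higher right of the dotted line (replicates 3 and 4) in every group, and Clock and Cry1 lower there in 3 of the 4 groups.

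Deviations from the group means described the same pattern. Of the 45 pairs of members, 9 had a Pearson r above 0.7 and 7 an r below -0.7 over the 16 astrocyte libraries. Over the 12 microglial libraries 3 were above and 2 below. In astrocytes Dbp and Clock had r = -0.91 (Spearman rho = -0.95), Per1 and Bhlhe40 0.89 (0.91) and Per1 and Per2 0.88 (0.81). These libraries share replicate numbers and form the 2 sets above, so the values describe those sets and carry no p. In microglia Cry2 and Dbp had r = 0.79 (rho = 0.81) and Ciart and Bhlhe41 -0.85 (-0.79). The 12 microglial libraries include replicate 3 of H2O and LPS, which stood apart, so these values too are only a description. No share over all pairs of genes was taken in either cell type, and nothing is read from the counts of pairs.

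Across cell types, levels come from tables with different gene lists and were set side by side without a test. Per2 (29.9 to 58.6 CPM), Cry1 (13.8 to 26.3) and Clock (69.8 to 131) were higher in every astrocyte library than in any microglial one (9.30 to 15.0, 2.23 to 12.3 and 25.3 to 60.1 CPM). The share of all genes apart in this way was not taken, so nothing particular to clock genes is read from it. Days after isolation also differed (1 for microglia, 3 for astrocytes) and cannot be told apart from cell type. Bhlhe41 was highest in vehicle microglia, 142 to 269 CPM against 48.8 to 81.2 CPM in vehicle astrocytes, and microglia with ENV (40.5 to 80.3 CPM) overlapped the vehicle astrocytes while microglia with LPS (30.1 to 45.0 CPM) lay below them. Per1 means ran in order from microglia with buffer (31 ± 3.33 CPM) to astrocytes with LPS (21.2 ± 6.29 CPM), and each group overlapped the next. For Cry2 the order was astrocytes with buffer (57.2 ± 4.46 CPM), astrocytes with H2O (51.9 ± 8.27), microglia with LPS (40.7 ± 4.17), astrocytes with LPS (40.4 ± 5.67), astrocytes with ENV (39.9 ± 4.50), microglia with ENV (35.2 ± 2.64), microglia with H2O (21.5 ± 3.68) and microglia with buffer (19.2 ± 0.92). The only neighbours in that order whose ranges were apart were microglia with ENV and microglia with H2O.

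The genes whose log2 levels were most like Bhlhe40 over the 12 microglial libraries were Pmm1 (r = 0.98), Lonrf3 (0.98) and Pxdc1 (0.98), and over the 16 astrocyte libraries Rnd1 (0.98), Btg2 (0.97) and Tgm2 (0.96). Those most like Ciart were Wdr81 (0.93), Ambra1 (0.93) and Cd164 (0.93) in microglia, and LOC108352814 (0.83), Htra1 (0.76) and Zfp939 (0.75) in astrocytes. They are the highest of 13270 and 15496 genes and are given as a description.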

How the data were processed

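Counts of messenger RNA reads per gene symbol were deposited by the authors for 28 libraries, whole numbers with no normalization. The submitters' processing notes name HISAT2, StringTie 1.3.3b and the build mRatBN7.2; the sources used here give no settings, annotation release or strand handling. Libraries were made from 150 ng of total RNA by mRNA capture, per the labels' protocols. No molecular identifiers are mentioned, so depth floors (3 counts) cover counting error only. CPM used the library total. Changes were fitted with edgeR 4.0.16 (limma 3.58.1, R 4.3.3): TMM, filterByExpr, robust quasi-likelihood F test, two-sided, on the 2 groups compared or, for differences between responses, on the 4 groups involved. All 10 members passed the filter in all 10 comparisons. SE is the change divided by the square root of F. The script was tested on simulated data. Cell types were joined by symbol.

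The members and gene lists were chosen with earlier results of these data known. Named were all members, pathway genes called with CPM ranges apart (at most 8 a comparison, by size; the rest of 10 or fewer are added by name), Bmal1, Nr1d1 and Nr1d2, and the 3 genes most like Bhlhe40 and Ciart (log2 CPM, prior count 2). Replicate numbers are in the sample titles. Same-numbered libraries correlated in their deviations by 0.26 to 0.64 in the 4 treated comparisons, every pair over 0.1, so the numbers were taken as pairs there. The highest correlation with another number was -0.38 to 0.53, and in astrocytes with LPS that of replicate 2 (0.531) was as high as its own (0.529); in the microglial vehicles replicate 2 gave -0.16. Alternatives were DESeq2 1.42.0 and its size factors, no filter, a replicate block, a joint fit, astrocyte replicates 1 and 2 or 3 and 4 alone, each library left out, another prior count and, added after seeing the data, microglial H2O and LPS without replicate 3. RefSeq promoters (GRCr8) were matched by symbol for 9 of 10 members. Python 3.11.15, pandas 2.3.3, scipy 1.17.1 and matplotlib 3.10.9 were used.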

Additional observations from a re-analysis of the deposited data

Results flagged for a closer look

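Responses that differed between microglia and astrocytes were singled out here because the difference itself passed its test, in which cell type and days after isolation cannot be told apart. These were Cry2 for ENV (1.57 ± 0.16 log2, microglia minus astrocytes, adjusted p = 9.16e-05, edgeR), Cry1 for ENV (-1.18 ± 0.16, adjusted p = 0.000454) and Cry2 for LPS (1.53 ± 0.24, adjusted p = 0.00190). Cry2 was higher in 3 of 3 microglial and lower in 4 of 4 astrocyte pairs with each agent. Bhlhe40 was singled out because all 3 microglial pairs were lower with ENV and all 4 astrocyte pairs higher (-3.99 ± 0.30); that difference was not tested. Among the 40 sets of 4 astrocyte values, no library lay beyond Dixon's limit of 0.829, which chance passes about once in 20 sets. This check cannot single out a library where replicates 1 and 2 stood far from 3 and 4. The microglial groups were not checked in this way.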

How the results depend on the processing

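The count of called members moved by over 1.5 times in these settings; for single libraries left out, the lowest and highest counts follow. In microglia with LPS, 2 became 4 with the replicate block, in the joint fit and without the replicate 3 pair, and 2 to 3 with 1 library left out. In astrocytes with ENV, 2 became 0 in replicates 1 and 2 alone and 1 in replicates 3 and 4 alone, where fewer samples enter. In astrocytes with LPS, 1 became 3 with the block and 2 in replicates 1 and 2 alone and in replicates 3 and 4 alone. For the LPS response between cell types, 1 became 2 with DESeq2, 3 with the block and 1 to 2 with 1 library left out. The cause was not tested. Microglia with ENV gave 4, or 3 to 5 with 1 library left out. The block changed no call of a member other than those given in the text. Of 1232 values of tested members under all alternatives, 1204 kept their side of the threshold, 8 lost a call, 20 gained one and 0 called values reversed; 67 uncalled values changed sign. Ranges of CPM apart numbered 20 of 40, or 17 by TMM size; 12 pairs of members had r above 0.7 with either prior count. Over all genes, calls went from 3972 to 2466 to 5282 (microglia ENV, 1 library left out), from 3647 to 1351 to 3986 (microglia LPS), from 2670 to 1487 to 2869, 4348 with the block, 372 in replicates 1 and 2, 950 in replicates 3 and 4 (astrocytes ENV), and from 785 to 236 to 681, 2049 with DESeq2, 2611 with the block, 1736 in the joint fit and 2970 in replicates 1 and 2 (astrocytes LPS). Microglial vehicles gave 0, but 28 in the joint fit and 1 with no filter. The microglial difference of ENV and LPS gave 0, but 1 with the block, up to 4 with 1 library left out and 8 without the replicate 3 pair. Between cell types, 1998 became 3314 (ENV, block) and 1656 became 2720 with DESeq2 and 3029 with the block (LPS). Depth did not limit the members, the scarcest being Ciart at 1.52 CPM.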
